A study of Platynereis dumerilii with 97 samples.

Results

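The 150 transcripts described here were abundant in the first hours after fertilization of the marine annelid Platynereis dumerilii, were still there during gastrulation, and had lost most of their share of the library by the second day. They are called the late-falling transcripts, or members, below. They were chosen by level from 10908 transcripts, of which they are 1.38%. Levels are given as CPM, a transcript's counts over the library's transcript counts scaled to a fixed total, without PT_v1_tr_02502, which alone took between 12.8% and 70.6% of a library's transcript counts in the hour blocks. Of 1699 transcripts with a pooled level of at least 100 CPM at 1 to 6 h, 1040 kept at least 0.6 of it at 13 to 17 h. Of these, 382 were under 0.5 of the 1 to 6 h level at 43 to 51 h, and the members are the 150 with the lowest ratio of 43 to 51 h over 13 to 17 h. The values of those 3 blocks chose the members, so they are given as a description with no test.

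Each of the 97 libraries was made from 1 whole embryo reared at 18 °C, by CEL-Seq, which tags the 3' end of polyadenylated RNA with a barcode and amplifies it by in vitro transcription. No label names a treatment, the eggs came from several matings, and no label says which embryos shared parents. Ages were read from the labels, with no more than 1 embryo per hour, and embryos were pooled into blocks of 1-6 h (n = 6), 7-12 h (n = 6), 13-17 h (n = 5), 18-23 h (n = 6), 25-30 h (n = 6), 31-36 h (n = 6), 37-42 h (n = 6), 43-51 h without 48 h (n = 8) and 52-58 h (n = 7), with 85-97 h (n = 12) as the last. The spread within a block therefore holds development inside it as well as differences between embryos. In whole embryos, fewer cells of a type and less RNA per cell cannot be told apart.

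An animal egg is loaded by the mother with RNA that runs the first divisions. This store is removed in waves, partly by factors already in the egg and partly by factors the embryo makes once its own genome is transcribed, and the removal is coupled to the hand-over of control from mother to embryo. Platynereis cleaves in a spiral pattern, gastrulates as the small micromere-derived cells spread over the large yolky macromeres, and becomes a swimming trochophore larva around the end of the first day, later adding segments. A count does not tell a stored molecule from a newly made one, so "maternal" is used here only for the time at which a transcript was present. The transcripts carry identifiers without gene names in the files, so no function is assigned to any of them.

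Some libraries stood apart before any result. Transcript totals without PT_v1_tr_02502 ran from 94681 to 1893173 counts, apart from 2816 counts in the library labelled 62 h. The library labelled 21 h had the second lowest total, detected 116 of the 150 members where the libraries of 1 to 20 h detected between 145 and 150, and is in the 18-23 h block. The library labelled 24 h held few member counts for its hour and that labelled 48 h many, and both were kept out of the blocks, as were those of 62 and 120 h. The labels name no batch, but the samples numbered 51 and above in them (52 h and later, with 24 h) detected fewer members and are called the second series. Members detected fell from 142 at 51 h to 90 at 52 h, and across this border the effect of age cannot be told apart from that of the series.

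Among the members, pooled levels at 1-6 h ran from 102.7 to 10080 CPM with a median of 179 CPM. The median was 169 CPM at 13-17 h and 36.0 CPM at 43-51 h. The ratio of 43-51 h over 13-17 h ran from 0.00557 to 0.308 with a median of 0.201, and 19 members were under 0.1. The 10 lowest ratios were 0.00557 in PT_v1_tr_07937, 0.00735 in PT_v1_tr_05500, 0.00814 in PT_v1_tr_03212, 0.0129 in PT_v1_tr_08168, 0.0142 in PT_v1_tr_01726, 0.0331 in PT_v1_tr_08327, 0.0548 in PT_v1_tr_10234, 0.0642 in PT_v1_tr_02062, 0.0714 in PT_v1_tr_00346 and 0.0731 in PT_v1_tr_08043. The 10 largest shares of counts at 13-17 h ran from 3109 CPM in PT_v1_tr_08320 to 8289 CPM in PT_v1_tr_01761, and 18 members were at 1000 CPM or more. Just inside the limit of 150 lay PT_v1_tr_04715 at a ratio of 0.302 and PT_v1_tr_09673 at 0.308. Just outside it lay PT_v1_tr_00253 at 0.308 and PT_v1_tr_03345 at 0.309, so the limit falls in an unbroken run of values.

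All 150 had counts in the embryo labelled 1 h and 148 in each of those labelled 2 to 6 h, which the minimum of 100 CPM in that block made nearly certain. From 1-6 h to 13-17 h, 106 members were lower and 44 higher, with 10 higher by 1.5-fold or more. PT_v1_tr_05500 stood apart by the size of its gain: it had 7, 12, 13, 28, 27 and 102 counts in the embryos of 1 to 6 h, and its pooled level then went from 119 to 4254 CPM, a 35.7-fold gain. The next largest gain was 2.42-fold, in PT_v1_tr_08694. Over the blocks to 51 h, 58 members were highest at 1-6 h, 69 at 7-12 h, 17 at 13-17 h, 3 at 18-23 h (PT_v1_tr_04846, PT_v1_tr_01052 and PT_v1_tr_01761) and 3 at 25-30 h (PT_v1_tr_00182, PT_v1_tr_01030 and PT_v1_tr_02657). These 6 were picked out after their values were seen. Without the library labelled 21 h the 18-23 h level of PT_v1_tr_01761 was 7787 CPM in place of 11054 CPM, and its highest block was 1-6 h at 10080 CPM. PT_v1_tr_05500 passed the minimum at 1-6 h with 102 of its 189 counts from the embryo labelled 6 h, so the label "maternal" rests on few counts for this member.

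**Figure D1:**
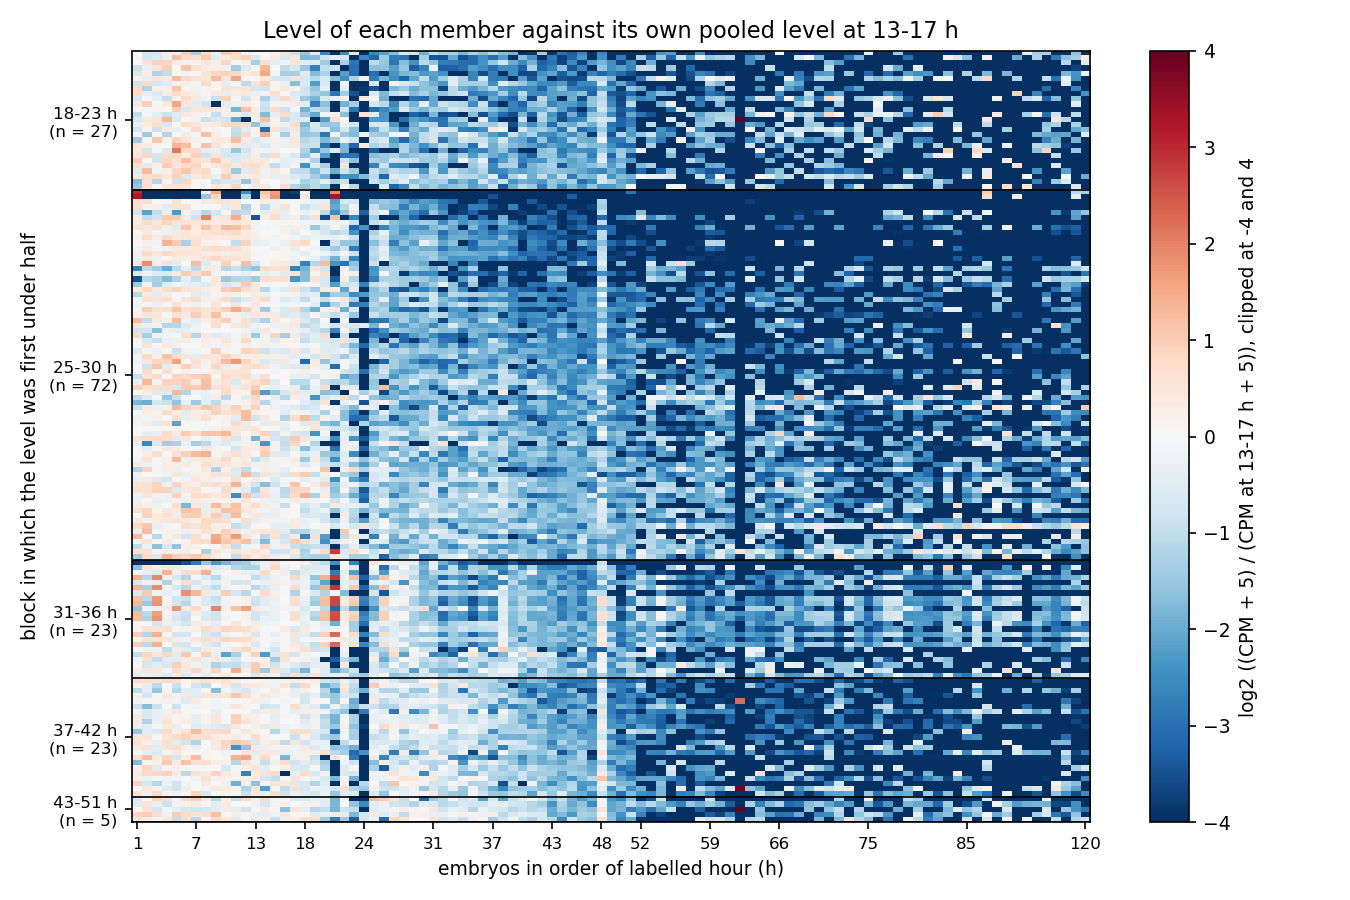
Each row is 1 of the 150 members, each column 1 of the 97 embryos in order of labelled hour, and the colour is log2 of (CPM + 5) over (pooled CPM at 13-17 h + 5), clipped at -4 and 4. Rows are grouped by the block in which the pooled level was first under 0.5 of that at 13-17 h (27, 72, 23, 23 and 5 members); columns labelled 21, 24, 48 and 62 h break the gradient.

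Between the blocks that the rule used, the fall was spread over a day. The median pooled level of the members was 214 CPM at 7-12 h, 116 CPM at 18-23 h, 76.1 CPM at 25-30 h, 69.1 CPM at 31-36 h and 50.7 CPM at 37-42 h. The pooled level first went under 0.5 of that at 13-17 h in the 18-23 h block for 27 members, at 25-30 h for 72, at 31-36 h for 23, at 37-42 h for 23 and at 43-51 h for 5. As a share of counts, nearly the whole set therefore went under this mark before 43 h. On that scale 72 of 150 did so across the hours in which the trochophore forms. That every member did so by 51 h in CPM follows from the rule and is not a finding. Against the spike-in RNAs described below the timing differed: 95 members were first under the mark at 18-23 h, 4 at 25-30 h, and 26 in no block to 51 h.

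The summed members took 10.5% ± 3.04 (SD, n = 6) of the counts at 1-6 h, 9.43% ± 0.602 (SD, n = 6) at 7-12 h and 8.92% ± 0.980 (SD, n = 5) at 13-17 h. The share was 11.4% ± 7.42 (SD, n = 6) at 18-23 h, where the library labelled 21 h reached 26.0% and the other 5 lay between 6.25% and 11.7%. It was 5.57% ± 2.39 (SD, n = 6) at 25-30 h, 2.90% ± 0.626 (SD, n = 6) at 31-36 h, 2.57% ± 0.805 (SD, n = 6) at 37-42 h and 1.71% ± 0.389 (SD, n = 8) at 43-51 h. Every embryo of 31-36 h was below every embryo of 1 to 23 h. From 52 h on the share stayed between block means of 1.597% and 2.29%.

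A share falls when other transcripts increase, so the members were also counted against the ERCC spike-ins, synthetic RNAs of which 92 are listed. The labels do not say that each embryo received the same amount, so this scale rests on that assumption. Summed member counts per spike-in count were 0.336 ± 0.0919 (SD, n = 6) at 1-6 h, 0.307 ± 0.0611 (SD, n = 5) at 13-17 h, 0.217 ± 0.0554 (SD, n = 6) at 18-23 h, 0.307 ± 0.0668 (SD, n = 6) at 25-30 h and 0.152 ± 0.0470 (SD, n = 8) at 43-51 h. All other transcripts were at 3.13 ± 0.489 (SD, n = 5) per spike-in count at 13-17 h, were also lower at 18-23 h, at 2.19 ± 1.18 (SD, n = 6), and then went up to 5.76 ± 1.81 (SD, n = 6) at 25-30 h and 8.61 ± 0.958 (SD, n = 8) at 43-51 h.

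Member by member, the ratio of 43-51 h over 13-17 h per spike-in count ran from 0.0143 to 0.789 with a median of 0.516. It was under 0.5 for 68 members and between 0.5 and 1 for 82, and no member was at 1 or above. At 25-30 h the median ratio to 13-17 h was 0.717, and 47 members were at 1 or above. On this scale 95 members were first under 0.5 of the 13-17 h level at 18-23 h, a block with few transcript counts per spike-in count as a whole, and 26 never were by 51 h. The fall as a share of the library was fixed by the rule, so it does not check the label of clearance after gastrulation. Per spike-in count, 82 of 150 members still had more than 0.5 of their 13-17 h level at 43-51 h.

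**Figure D2:**
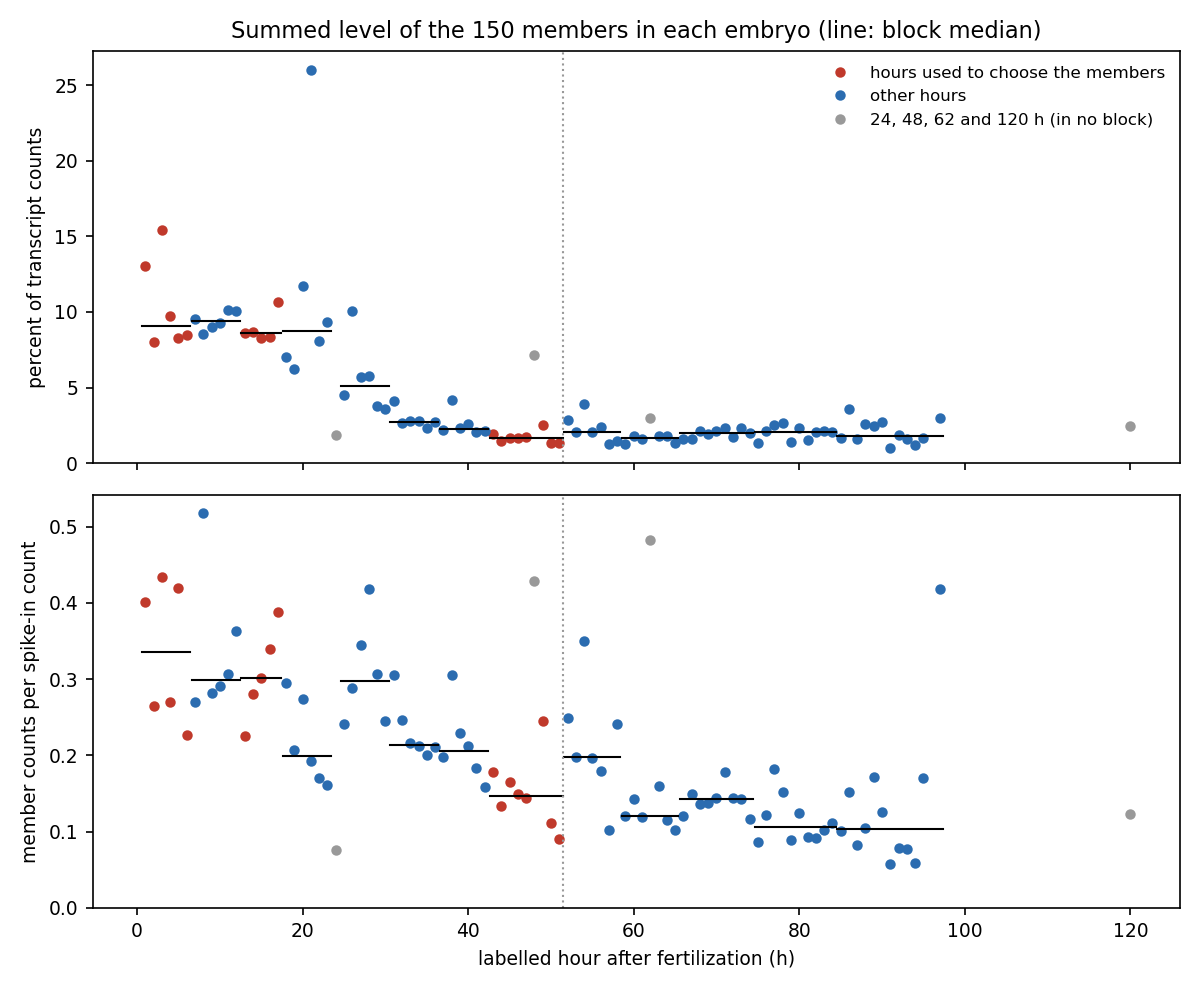
Points are the 97 embryos by labelled hour: summed counts of the 150 members as a percent of transcript counts without PT_v1_tr_02502 (top) and per spike-in count (bottom), with the median of each block as a line and the border of the second series dotted. The share goes from about 9% to under 3% by 31-36 h. Means per spike-in count are 0.307 at 13-17 h, 0.217 at 18-23 h, 0.307 at 25-30 h and 0.152 at 43-51 h. By share, the libraries labelled 21 and 48 h stand out at 26.0% and 7.14%.

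To ask when the fall passed a test in embryos that the rule did not use, neighbouring unused blocks were compared with edgeR's quasi-likelihood test, with log2 changes given as later over earlier. P-values were adjusted by Benjamini and Hochberg over all transcripts tested, with 0.05 as the threshold. TMM scaling, which assumes that most transcripts do not change, was used, so a log2 change need not match the ratio of the mean CPM. Since the rule had fixed a lower level at 43-51 h than at 13-17 h, a downward direction between 17 and 43 h was largely set by the choice of members. A higher share of calls among members than among all transcripts in those hours is therefore a description. Replicates are single embryos, and nothing in the labels says whether they were from separate broods.

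Across the whole of the unused fall, 37-42 h against 18-23 h, 58 of the 134 members that passed the filter on low counts were lower and 0 were higher. Of all 4264 transcripts tested, 8.63% were lower and 10.6% higher. The median log2 change was -1.26 for these members and 0.07 for all transcripts tested. With no filter on low counts, 33 of the 150 members were lower, against 3.46% of all transcripts. The 58 falls ran from -1.004 to -5.18 on the log2 scale, with a median of -2.15, and 32 of them were of 2 or more. In 17 of the 134 every embryo of 37-42 h was below every embryo of 18-23 h, against 2.04% of all transcripts tested. By the block in which they first went under the 0.5 mark, 39 of the 58 were from 25-30 h, 11 from 31-36 h, 7 from 37-42 h and 1, PT_v1_tr_09264, from 18-23 h. Leaving out 1 embryo gave between 45 and 62 calls.

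Scaling by the spike-ins changed this picture. The median of all transcripts then moved by 1.85 on the log2 scale between the blocks, that of the members by 0.52, and 3 of the 134 members were lower and 5 higher. The 3 that fell on both scales were PT_v1_tr_08327, PT_v1_tr_08168 and PT_v1_tr_05500, with log2 changes per spike-in count of -3.54, -2.50 and -2.19. The 5 that rose, with changes from 1.69 to 2.27, were PT_v1_tr_01030, PT_v1_tr_07468, PT_v1_tr_01160, PT_v1_tr_06010 and PT_v1_tr_09650, and they were picked out after their values were seen. These changes start from 18-23 h, a low block on this scale. Other transcripts had means of 2.19 per spike-in count there and 3.13 at 13-17 h. The summed members had means of 0.307 at 13-17 h, 0.217 at 18-23 h and 0.215 at 37-42 h. On that scale 0.328% of all transcripts were lower and 51.45% higher, so 99.4% of all calls were higher, against 55.2% with TMM.

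**Figure D3:**
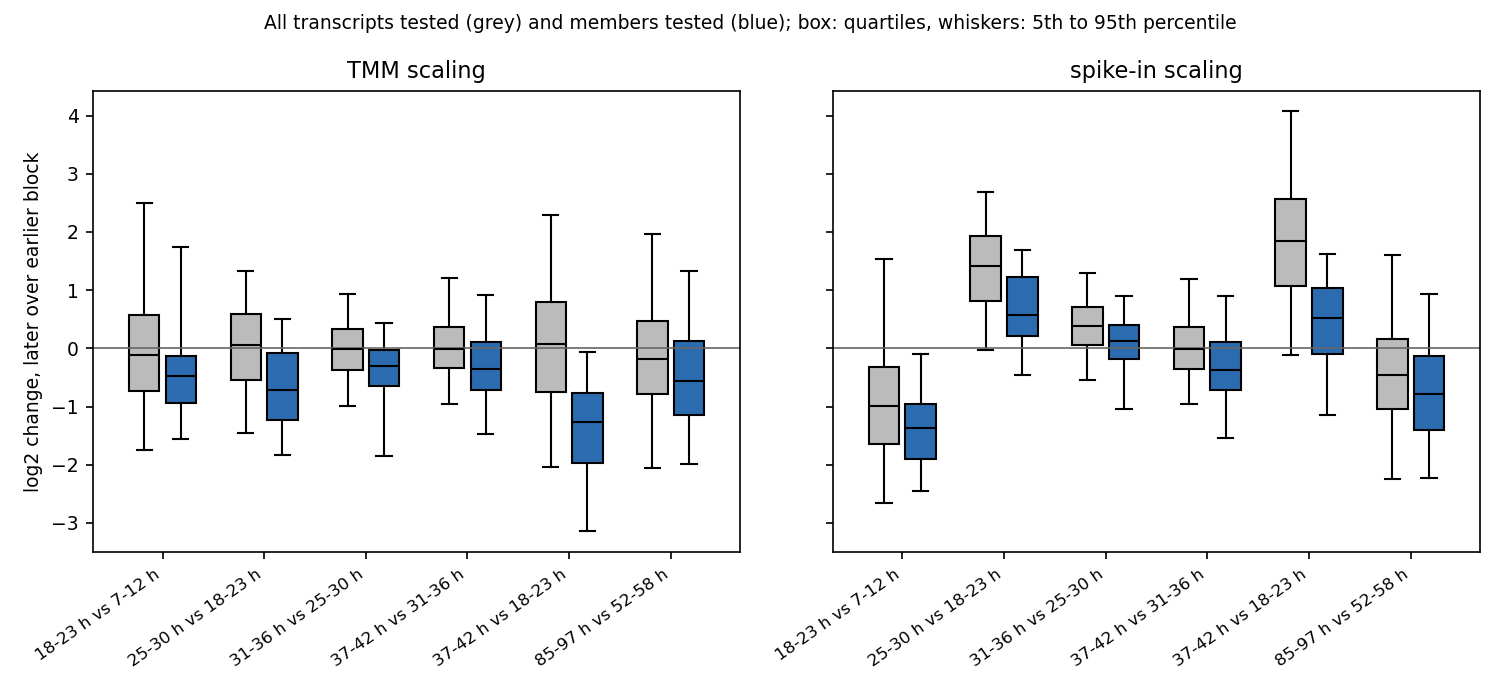
Boxes show log2 changes of all transcripts tested (grey) and of the members tested (blue) in the 6 comparisons, under TMM scaling (left) and spike-in scaling (right), with the quartiles as the box and the 5th to 95th percentile as whiskers. For 37-42 h against 18-23 h the median of the members is -1.26 against 0.07 for all transcripts on the left and 0.52 against 1.85 on the right: the median of the members is below that of all transcripts on both scales, and above 0 on the right. The earlier block, 18-23 h, was low per spike-in count as a whole.

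PT_v1_tr_08168 gave one of the plainest courses. Its levels were 916, 988, 680, 911 and 806 CPM in the embryos of 13 to 17 h, and the lowest, median and highest were 180, 570 and 745 CPM at 18-23 h and 7.86, 23.4 and 78.4 CPM at 37-42 h. The earlier and later embryos do not overlap, and the lowest of the earlier ones is the library labelled 21 h. The mean went from 540 ± 202 to 31.3 ± 26.0 CPM (SD, n = 6 each), with a log2 change of -4.18, an SE of 0.50 and an edgeR adjusted p of 1.31e-05. After 63 h it had 0 counts in every embryo.

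PT_v1_tr_08327 had the largest fall among the members that passed. It stood at 204, 150, 276, 163 and 210 CPM in the embryos of 13 to 17 h. At 18-23 h the lowest, median and highest were 31.7, 130.5 and 224 CPM, and at 37-42 h they were 0, 2.87 and 10.2 CPM, with 3 of 6 embryos at 0 and 11 counts in all. The mean went from 126 ± 73.1 to 3.71 ± 4.34 CPM (SD, n = 6 each), with a log2 change of -5.18, an SE of 0.81 and an edgeR adjusted p of 0.000194. The embryos of the blocks did not overlap. It did not stay low in all later embryos: at 85-97 h 7 of 12 embryos had 0 counts and the highest, at 87 h, was at 179.5 CPM.

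PT_v1_tr_05500, the member that built up after fertilization, stood at 2634, 3644, 6016, 4074 and 4250 CPM in the embryos of 13 to 17 h. It was at 981, 3723 and 6281 CPM (lowest, median and highest) at 25-30 h, where the lowest embryo was below all of 13-17 h and the highest above them, and at 65.8, 163 and 385 CPM at 37-42 h. From 7-12 h to 18-23 h it rose from 1206 ± 418 to 2542 ± 1731 CPM (SD, n = 6 each), with a log2 change of 1.42, an SE of 0.38 and an edgeR adjusted p of 0.0216. This call was lost with total counts (log2 change 1.08), with spike-ins (0.71) and without the embryo of 7 h or 9 h. It then fell to 185.5 ± 115 CPM (SD, n = 6) at 37-42 h, with a log2 change of -3.81 against 18-23 h (SE 0.48, adjusted p = 2.03e-05, edgeR). Its course was that of a transient transcript, and at 85-97 h all 12 embryos had 0 counts.

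PT_v1_tr_00346 declined steadily from the start. Its embryos were at 2742, 3108 and 3902 CPM (lowest, median and highest) at 1-6 h, at 2386, 2161, 2058, 2254 and 2054 CPM from 13 to 17 h, and at 1225, 1866 and 2031 CPM at 18-23 h. By 37-42 h they were at 159, 287 and 620 CPM. The change from 1786 ± 285 to 328 ± 162 CPM (SD, n = 6 each) gave a log2 change of -2.60 (SE 0.32, adjusted p = 1.77e-05, edgeR), with no overlap between the blocks. Per spike-in count the log2 change was -0.67 (SE 0.58), which did not pass.

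PT_v1_tr_05968 and PT_v1_tr_02123 were higher at 13-17 h than at 1-6 h. PT_v1_tr_05968 went from 501.5 ± 236 to 78.9 ± 42.1 CPM (SD, n = 6 each), with a log2 change of -2.73, an SE of 0.40 and an edgeR adjusted p of 9.95e-05. Only the library labelled 21 h, at 148 CPM, was below an embryo of 37-42 h. PT_v1_tr_02123 went from 2439 ± 1396 to 813 ± 376 CPM (SD, n = 6 each), with a log2 change of -1.67, an SE of 0.48 and an edgeR adjusted p of 0.0186. The library labelled 21 h, at 211 CPM, was the only one of the earlier block below an embryo of 37-42 h, and the transcript kept 357 to 957 CPM at 43-51 h. Its call was lost with no filter and without the embryo of 20 h or 40 h, and with spike-ins the log2 change was 0.16, the other direction.

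**Figure D4:**
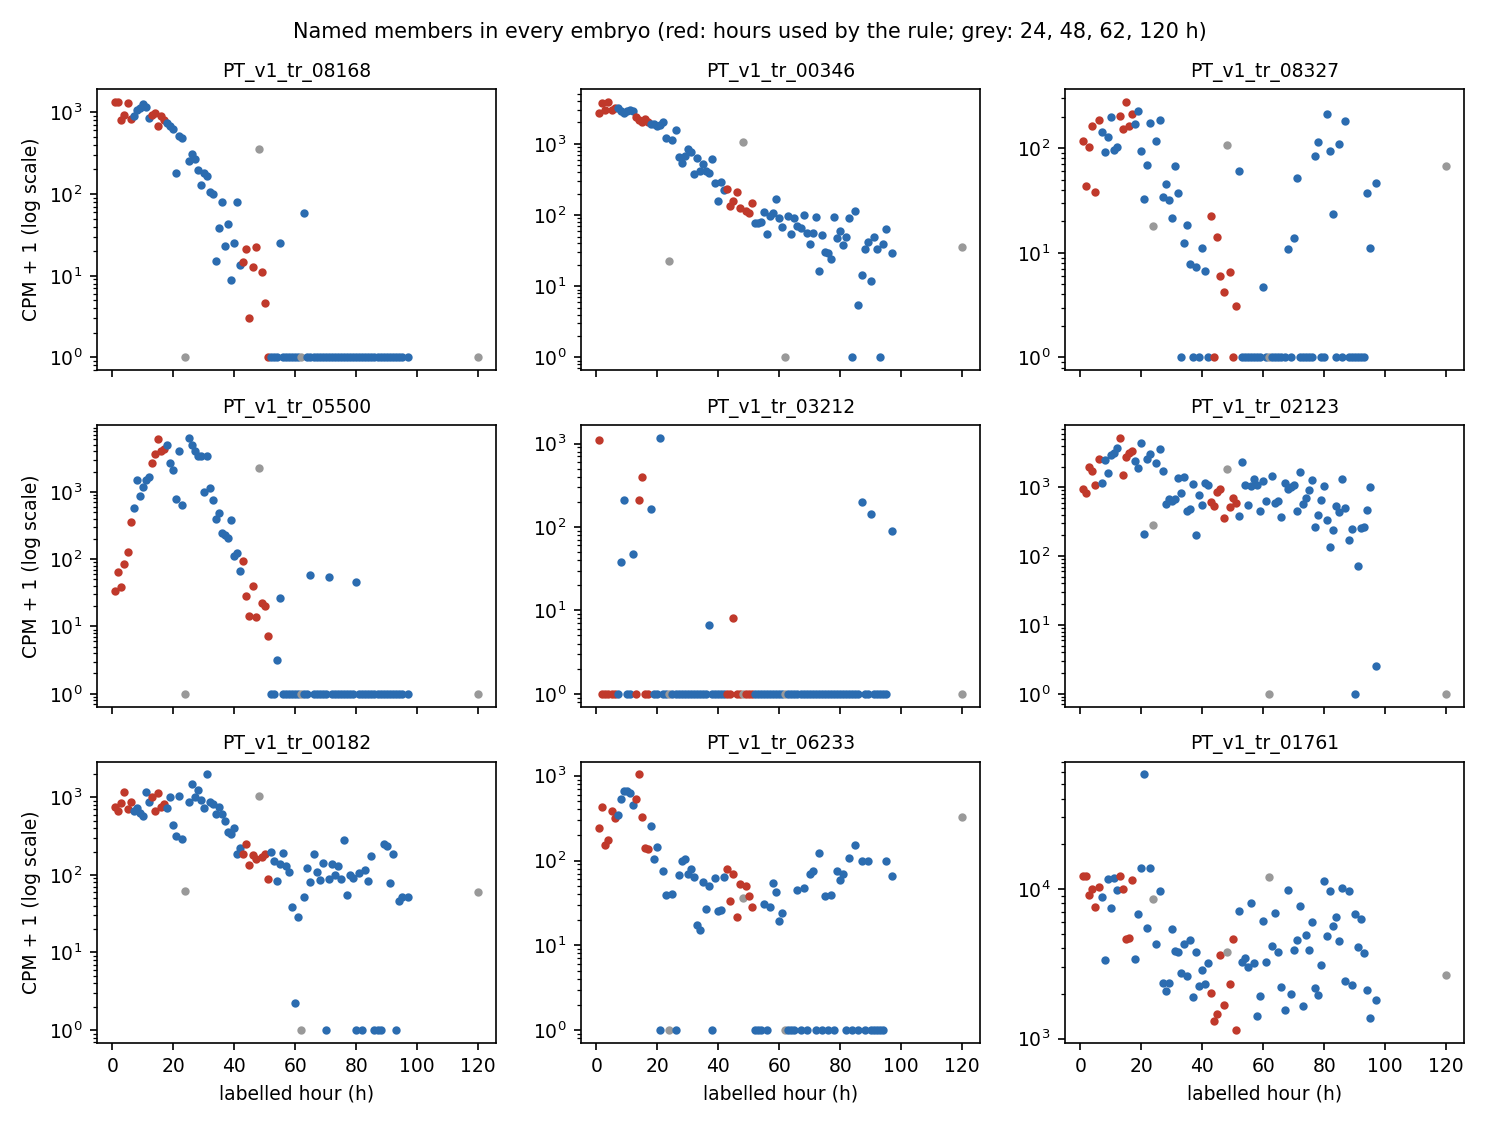
Levels of 9 members in every embryo, as CPM + 1 on a log axis against the labelled hour; red points are hours used to choose the members, grey points are the libraries labelled 24, 48, 62 and 120 h. PT_v1_tr_08168 and PT_v1_tr_05500 are at 0 counts in all 12 embryos of 85-97 h, and PT_v1_tr_03212 is at 0 in most embryos. PT_v1_tr_00182 has medians of 585 CPM at 18-23 h, 789 CPM at 31-36 h and 347 CPM at 37-42 h. PT_v1_tr_01761 goes down and is still at 1380 to 10131 CPM at 85-97 h.

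The single steps gave fewer calls than the whole fall. From 18-23 h to 25-30 h, 0 of 140 members tested were lower and 0 higher by edgeR, against 0.0248% of all transcripts in each direction. At an unadjusted p under 0.05, 44 were lower and 1, PT_v1_tr_01030, higher, and DESeq2 called 29 lower and 0 higher. Over all transcripts 7.22% were lower and 8.31% higher at that unadjusted p, and 3.99% and 3.10% by DESeq2. Higher calls made up 50% of the calls over all transcripts with TMM (1 higher, 1 lower) and 33.3% with total counts (1 and 2). With spike-ins they made up 99.0% (517 and 5). Members lower were between 0 and 6 with 1 embryo left out, the most without 26 h. In 1 of the 140, PT_v1_tr_01675, all later embryos lay below all earlier ones, against 0.57% of all transcripts. From 25-30 h to 31-36 h, 0 of 137 were lower or higher, against 0% and 0.0198% of all transcripts. Here 22 were lower and 0 higher at an unadjusted p under 0.05, and DESeq2 called 10 lower and 0 higher. Over all transcripts these were 4.45% and 4.73%, and 0.85% and 0.653% by DESeq2. Between 0 and 7 were lower with 1 embryo left out, the most without 31 h. In none of the 137 did the blocks part without overlap, against 0.237% of all transcripts.

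From 31-36 h to 37-42 h, 4 of 133 members tested were lower and 0 higher, against 0.246% and 0.719% of all transcripts, and in 6 of the 133 the blocks did not overlap, against 0.801%. Of all calls 74.5% were higher, and 85.3% with spike-ins. The 4 calls of members lower became 0 to 4 with 1 embryo left out. At an unadjusted p under 0.05 by edgeR, 25 members were lower and 8 higher, against 6.14% and 7.53% of all transcripts. Without a group of 8 members whose levels ran in step, described below, 25 were lower and 0 higher. DESeq2 called 0 members higher, against 2.61%. The 4 that fell were PT_v1_tr_10830, PT_v1_tr_00182, PT_v1_tr_03302 and PT_v1_tr_08929. PT_v1_tr_03302 and PT_v1_tr_08929, with log2 changes of -1.09 and -0.98, were picked out after their values were seen, and each lost its call without any of 10 single embryos. PT_v1_tr_00182 was at 287, 585 and 1035 CPM (lowest, median and highest) at 18-23 h and at 719, 974 and 1491 CPM at 25-30 h. It was at 608, 789 and 1978 CPM at 31-36 h, the highest being the embryo labelled 31 h. At 37-42 h it was at 185.5, 347 and 496 CPM. The mean went from 944 ± 518 to 334 ± 116 CPM (SD, n = 6 each), with a log2 change of -1.42, an SE of 0.30 and an edgeR adjusted p of 0.0357. The blocks did not overlap. The call was lost when any of 7 single embryos was left out. PT_v1_tr_10830 went from 106 ± 49.7 to 32.8 ± 11.2 CPM (SD, n = 6 each), with a log2 change of -1.61, an SE of 0.37 and an edgeR adjusted p of 0.0492, a call lost without any of 10 single embryos.

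Members that fell last were those first under the 0.5 mark at 43-51 h: PT_v1_tr_07468, PT_v1_tr_01030 and PT_v1_tr_09946 held the largest shares of counts among these 5, and the other two were PT_v1_tr_09725 and PT_v1_tr_03326, named after their values were seen. PT_v1_tr_07468 was at 244, 238, 263.5, 404.5 and 309 CPM in the embryos of 13 to 17 h and at 140, 198 and 382 CPM (lowest, median and highest) at 37-42 h. At 43-51 h it was at 52.0, 86.5 and 162 CPM. PT_v1_tr_01030 had a pooled level of 206 CPM at 13-17 h, 115 CPM at 18-23 h, 215 CPM at 25-30 h and 56.7 CPM at 43-51 h.

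The end of the plateau was compared as 18-23 h against 7-12 h, blocks on both sides of the gastrulation hours used by the rule. Of 148 members tested, 10 were lower and 9 higher, against 4.43% and 8.09% of all 3410 transcripts tested. The median log2 change was -0.47 for the members and -0.11 for all. In 28 of the 148 every embryo of 18-23 h was below every embryo of 7-12 h, against 8.94% of all. The scaling moved this comparison: the median of all transcripts was -0.53 with total counts and -0.99 with spike-ins, and 64.6% of all calls were higher with TMM, 32.6% with total counts and 19.1% with spike-ins. With total counts 32 of the 148 members were lower and 0 higher, against 10.2% and 4.96% of all transcripts. With spike-ins 13 were lower, a share near the 6.95% of all transcripts, and 0 higher, against 1.64%. With 1 embryo left out, members lower ran from 5 without 8 h to 18 without 21 h, and members higher from 0 to 10. With no filter 10 members were lower and 1 higher, against 2.35% and 5.33% of all transcripts.

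PT_v1_tr_09650 and PT_v1_tr_06233 had the largest falls in that comparison. PT_v1_tr_06233 was at 346, 574 and 667 CPM (lowest, median and highest) at 7-12 h, at 525, 1037, 329, 140 and 136 CPM in the embryos of 13 to 17 h, and at 0, 88.9 and 253.5 CPM at 18-23 h. Within the gastrulation block the embryo labelled 17 h was the lowest, at 136 CPM, but that labelled 18 h was higher again, at 253.5 CPM. With no more than 1 embryo per hour, a fall inside the block cannot be told apart from differences between embryos, and it was not tested. The mean went from 544 ± 128 to 102 ± 89.4 CPM (SD, n = 6 each), with a log2 change of -1.998, an SE of 0.48 and an edgeR adjusted p of 0.0127. PT_v1_tr_09650 went from 151 ± 43.3 to 26.7 ± 21.2 CPM (SD, n = 6 each), with a log2 change of -2.01, an SE of 0.50 and an edgeR adjusted p of 0.0151. It was back at 48.3 ± 27.6 CPM (SD, n = 6) at 37-42 h, a log2 change of 0.71 (SE 0.62) with an adjusted p of 0.467 against 18-23 h (edgeR). In both the embryos of 7-12 h and 18-23 h did not overlap. PT_v1_tr_09264, at 785 ± 329 CPM at 7-12 h and 187 ± 78.9 CPM at 18-23 h (SD, n = 6 each), with a log2 change of -1.59, an SE of 0.35 and an edgeR adjusted p of 0.00738, also parted without overlap. It held the largest share of counts among the 27 members first under the 0.5 mark at 18-23 h.

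Of the 9 members called higher at 18-23 h, 8 were a group whose levels ran in step over the 97 embryos, and the ninth was PT_v1_tr_05500. The group is PT_v1_tr_06554, PT_v1_tr_03963, PT_v1_tr_05492, PT_v1_tr_05967, PT_v1_tr_06635, PT_v1_tr_07972, PT_v1_tr_08319 and PT_v1_tr_08320. Pearson's r of log2(CPM + 1) with PT_v1_tr_06554 was between 0.835 and 0.996 for these, and 0.649 for the next member, PT_v1_tr_01726. The 97 include the library labelled 62 h, with 2816 counts in all, where single counts move a level far. No r was computed without that library, so its weight in these values is not known. These correlations are over embryos that share the change with age and, within an embryo, 1 library, so they are a description. They were grouped after their values were seen. The group held 41.6% of the summed member level at 1-6 h and 33.6% at 13-17 h.

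Levels of the group swung between embryos of neighbouring hours. PT_v1_tr_06554 was at 9452, 2156, 12860, 4701, 2859 and 2998 CPM in the embryos of 1 to 6 h. It was at 3072, 4623, 3832, 5103 and 6598 CPM from 13 to 17 h. At 18-23 h it was at 2469, 6554 and 23342 CPM (lowest, median and highest), the highest being the library labelled 21 h, where the group summed to 180152 CPM. At 31-36 h it was at 521, 1183 and 1778 CPM, and at 43-51 h at 564, 1121 and 2348 CPM.

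For PT_v1_tr_08319 the rise from 2550 ± 658 CPM at 7-12 h to 7209 ± 7757 CPM at 18-23 h (SD, n = 6 each) gave a log2 change of 2.30 (SE 0.66, adjusted p = 0.0311, edgeR). Later embryos overlapped earlier ones, and the log2 change was 1.18 without the library labelled 21 h, with the call lost. PT_v1_tr_08320, at 2.27 (SE 0.66, adjusted p = 0.0332, edgeR), had a change of 1.10 without that library and also lost its call. In both, the call was lost without any of 8 single embryos, with total counts, with spike-ins and with no filter. Without the group, 10 members were lower and 1 was higher at 18-23 h against 7-12 h, and 50 of 126 were lower at 37-42 h against 18-23 h.

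In CPM the other 142 members formed a smoother course. Their summed level was 63476 ± 4271 CPM (SD, n = 6) at 1-6 h, 67741 ± 3600 CPM (SD, n = 6) at 7-12 h and 60555 ± 5451 CPM (SD, n = 5) at 13-17 h. It was 51356 ± 14973 CPM (SD, n = 6) at 18-23 h, 31175 ± 7611 CPM (SD, n = 6) at 25-30 h, 22614 ± 4379 CPM (SD, n = 6) at 31-36 h, 14711 ± 1986 CPM (SD, n = 6) at 37-42 h and 10091 ± 1214 CPM (SD, n = 8) at 43-51 h. Per spike-in count these 142 were at 0.206 ± 0.0163 (SD, n = 5) at 13-17 h and 0.116 ± 0.0540 (SD, n = 6) at 18-23 h. They were then at 0.178 ± 0.0264 (SD, n = 6) at 25-30 h and 0.182 ± 0.0324 (SD, n = 6) at 31-36 h. At 37-42 h they were at 0.124 ± 0.0178 (SD, n = 6), and at 43-51 h at 0.0889 ± 0.0164 (SD, n = 8). On either scale every embryo of 43-51 h was below every embryo of 13-17 h, which the rule had fixed in good part.

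**Figure D5:**
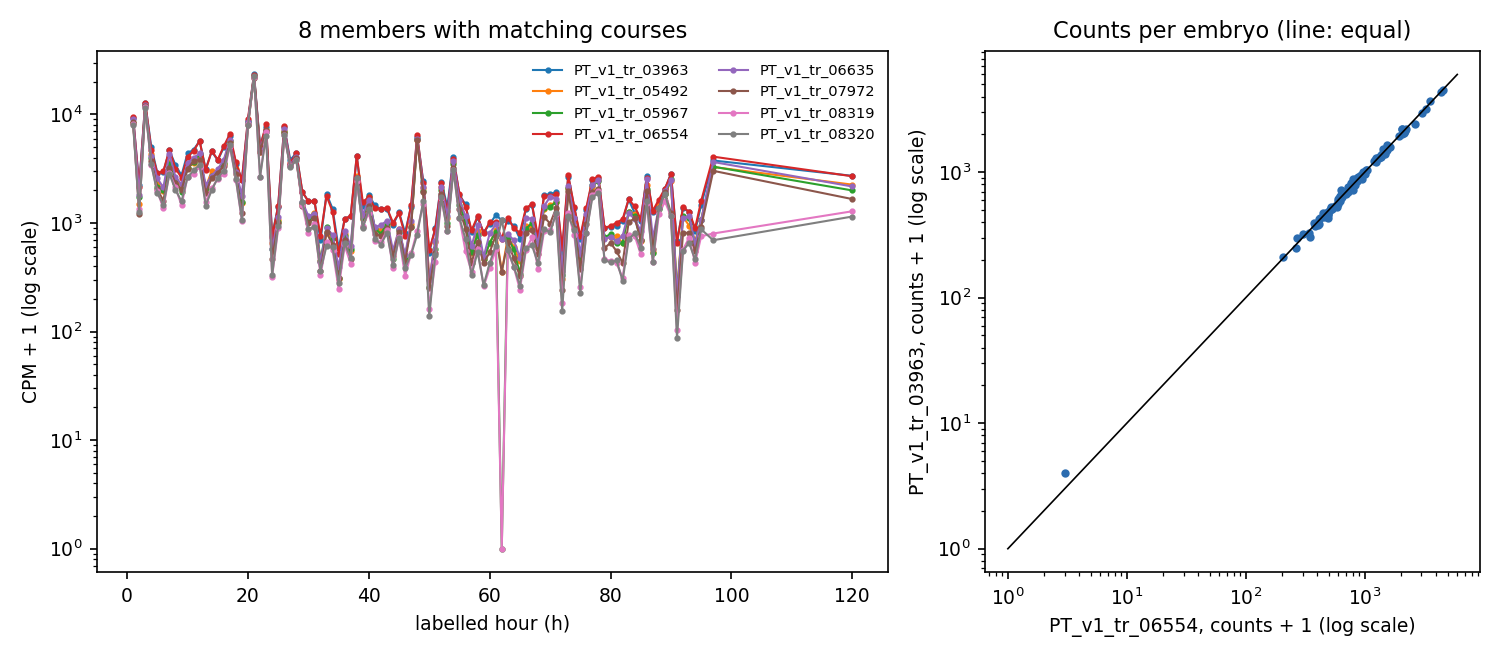
Left, levels of the 8 members whose courses ran in step, as CPM + 1 on a log axis against the labelled hour, with lines joining embryos; right, counts + 1 of PT_v1_tr_06554 and PT_v1_tr_03963 in each of the 97 embryos on log axes, with the line of equal counts. All 8 are highest, between 21895 and 23363 CPM, in the library labelled 21 h, and part at 48 h, where PT_v1_tr_08319 and PT_v1_tr_08320 are at 845 and 781 CPM and the others between 5768 and 6488 CPM; the pair on the right lies close to the line.

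Several members had counts so alike that their entries cannot be told apart by their courses. Summed over all embryos, PT_v1_tr_06554 and PT_v1_tr_03963 had 215006 counts, of which 50.1% went to the first. The spread of that split over embryos was 1.00 times the variance of a random allocation of each read, where the median over all 11175 pairs of members was 17.9 times. By a variance ratio under 2 and a split between 40% and 60%, limits set after the values were seen, 24 pairs formed 16 sets with 36 members in all. Counting each set once leaves 130 distinct profiles. Other such pairs are PT_v1_tr_00346 with PT_v1_tr_00348 at 1.02, PT_v1_tr_05967 with PT_v1_tr_05492 at 1.20, PT_v1_tr_08319 with PT_v1_tr_08320 at 1.20 and PT_v1_tr_01339 with PT_v1_tr_02301 at 1.16. Whether the counting split reads between near-identical entries was not tested, so the level of 1 entry of such a set is uncertain while that of the set is not affected by a split inside it.

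Identifiers in sequence gave 8 neighbouring pairs among the members, and 4 of these 8 met the limits of a random split. PT_v1_tr_08319 with PT_v1_tr_08320, PT_v1_tr_02887 with PT_v1_tr_02888, PT_v1_tr_09945 with PT_v1_tr_09946 and PT_v1_tr_10281 with PT_v1_tr_10282 did, with variance ratios of 1.20, 0.987, 1.00 and 0.701. PT_v1_tr_08694 with PT_v1_tr_08695, at 2.11, was just outside. PT_v1_tr_05967 with PT_v1_tr_05968, at 92.1, was far outside, with 90.5% of the counts in the first. PT_v1_tr_01627, PT_v1_tr_01628 and PT_v1_tr_01629 follow each other: the outer ones split at random at 0.899, and the middle one differed from them at 3.66 and 3.34. With 1 transcript per set, 46 of 115 tested were lower at 37-42 h against 18-23 h, and 9 of 128 lower and 5 higher at 18-23 h against 7-12 h.

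The sets cross the limits of the rule. The entries PT_v1_tr_03905 and PT_v1_tr_03906 split at random with PT_v1_tr_08319, at 1.49 and 1.62, but had fallen to under 0.6 by 13-17 h and so were not chosen. Besides these, PT_v1_tr_08915, PT_v1_tr_01759 and PT_v1_tr_07318 pair with members from outside. PT_v1_tr_03905, PT_v1_tr_03906, PT_v1_tr_10479, PT_v1_tr_00990, PT_v1_tr_01000 and PT_v1_tr_08777, none of them a member, also had an r of 0.8 or more with PT_v1_tr_06554. All 6 are among the transcripts that were under 0.6 of their early level by 13-17 h.

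The members with the lowest ratio and the third lowest, PT_v1_tr_07937 and PT_v1_tr_03212, were present in few embryos. PT_v1_tr_03212 had 237 counts in the embryo labelled 1 h, 0 in those labelled 2 to 7 h, 24 at 8 h and 60 at 9 h. It had over 10 at 12 h, 48 at 14 h, 159 at 15 h, 64 at 18 h and 110 at 21 h. PT_v1_tr_07937 had 172 counts at 1 h, 68 at 8 h, 81 at 9 h, 48 at 14 h, 124 at 15 h, 35 at 18 h and 36 at 21 h. The pair was over 10 counts together in 9 embryos, of which those labelled 87 and 97 h are late larvae, and both were at 0 in 80. At 12 and 90 h only PT_v1_tr_03212 was over 10 counts. Of the 23 embryos of 1 to 23 h, PT_v1_tr_07937 was at 0 in 14 and PT_v1_tr_03212 in 15, whereas the next member was at 0 in 3 and 103 members had a count in every one. For this pair a fall from block to block is a change in how many embryos had the transcript, and a mean level describes no single embryo.

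By share of counts at 13-17 h the first member was PT_v1_tr_01761. It stood at 12146, 9916, 4620, 4660 and 11473 CPM in the embryos of 13 to 17 h and at 1140, 1856 and 4606 CPM (lowest, median and highest) at 43-51 h. Between 18-23 h and 37-42 h it went from 16887 ± 20620 to 2712 ± 699 CPM (SD, n = 6 each), with a log2 change of -3.09, an SE of 0.71 and an edgeR adjusted p of 0.00743, the earlier mean holding the library labelled 21 h at 58048 CPM. The blocks overlapped. It was not lost: at 85-97 h it was at 1380, 3894 and 10131 CPM. Per spike-in count its log2 change between those blocks was -0.13 (SE 0.51), which did not pass.

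In the larvae the members stayed low as a set. Their median pooled level was 28.7 CPM at 52-58 h and 24.7 CPM at 85-97 h, both in the second series. From 52-58 h to 85-97 h, 0 of 87 members tested were lower and 0 higher by edgeR, against 2.59% and 1.64% of all transcripts, with 4 lower (6.27% of all transcripts; PT_v1_tr_02123, PT_v1_tr_03302, PT_v1_tr_08319 and PT_v1_tr_08320) and 0 higher (4.39% of all) at an unadjusted p under 0.05 and 0 in either direction by DESeq2. In 0 of the 87 was every later embryo below every earlier one, against 1.68% of all. Of all calls 38.7% were higher with TMM and 58.3% with total counts. Without the filter 10 of 149 members were lower and 4 higher, against 10.8% and 4.07% of all transcripts, so the members' shares were below the background. The 4 were PT_v1_tr_00111, PT_v1_tr_05959, PT_v1_tr_07937 and PT_v1_tr_03212.

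At 85-97 h, 18 members were at 100 CPM or more, 33 were under 10 CPM and 7 had 0 counts in all 12 embryos, which are PT_v1_tr_05500, PT_v1_tr_08168, PT_v1_tr_01726, PT_v1_tr_10052, PT_v1_tr_06137, PT_v1_tr_07383 and PT_v1_tr_05856. Over that block 0 counts allow a level of up to 0.671 CPM by counting error alone. PT_v1_tr_01726 had 0 counts in all 45 embryos from 52 h on, that of 62 h left out. Compared with 43-51 h, 53 members were higher at 85-97 h and 12 of them by 2-fold or more, across the border of the second series. Outside the pair present in few embryos, the largest such ratios were those of PT_v1_tr_08327, from 6.79 to 31.8 CPM, and PT_v1_tr_03438, from 144 to 512 CPM. No member was back above its 13-17 h level, and PT_v1_tr_03438 alone was above 0.5 of it.

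The members were set beside the other transcripts that began at 100 CPM or more. The median ratio of 43-51 h over 13-17 h per spike-in count was 0.516 for the members, 1.13 for the 232 candidates that were not among the 150, 2.40 for the 658 that kept at least 0.5 of their 1-6 h level to 43-51 h and 1.33 for the 659 that had fallen by 13-17 h. These classes were cut on the same levels, so their order is not a finding. At 37-42 h against 18-23 h, 29 of 227 candidates tested were lower by edgeR (12.8%) and 1 higher. Of the 657 tested among those 658, 14 were lower (2.13%) and 109 higher (16.6%). The level at 43-51 h had separated these 2 classes, so their directions were largely set and are a description. Of the 514 early ones 43 were lower (8.37%) and 40 higher (7.78%). Of all transcripts tested 8.63% were lower, near the share of the early ones, and 10.6% higher.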

How the data were processed

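Tools named, per the submitters' processing notes, are HTSeq 0.5.4p3, Bowtie2 2.1.0 and CASAVA 1.8; their roles, settings and any reference build are not given in the sources used here. The authors deposited 1 table of whole-number read counts per transcript and embryo, with 92 ERCC spike-ins and 5 summary rows. The summary rows (57.7% of all counts) stayed out of library sizes and tests. CEL-Seq as described names no molecular identifiers, so counts can hold amplification copies, and spread and floors from counts cover counting error only. Hours came from the labels and all 97 columns were matched to a sample.

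CPM were computed from these counts over transcripts without PT_v1_tr_02502, and pooled per block as summed counts over summed totals. Tests were edgeR 4.0.16 quasi-likelihood fits (robust, TMM, filterByExpr, R 4.3.3), 6 comparisons of blocks, tested on simulated data first. Each SE of an edgeR log2 change was derived, as the size of the change over the square root of the test's F statistic. Alternatives were DESeq2 1.42.0, its size factors, total-count and spike-in scaling, no filter, 1 transcript per near-identical set and each embryo left out.

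The members, the blocks and the lists were chosen with earlier results of these data known. Named were the 10 members with the lowest ratio, the 10 with the highest level at 13-17 h, the 2 largest falls and rises called per comparison, the 3 highest among the first and the last to fall, the 3 highest at 85-97 h, those beside the limit of 150, and consecutive identifiers. Members named outside this rule were chosen after their values were seen.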

Additional observations from a re-analysis of the deposited data

Results flagged for a closer look

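In 105 groups of 4 to 10 embryos, formed from member sums and from 19 named members, Dixon's test at the 95% level gave 28 flags. A flag marks 1 embryo far from the rest of its block, and the same library can be flagged in several groups. Chance flags about 1 group in 20 when groups are independent. These groups share libraries and members, so the flags cannot be set against that rate. Of the flags, 13 were on the library labelled 21 h. In it the members took 26.0% of the counts, next 11.7%. The correlated 8 summed to 180152 CPM, next 67305 CPM, and the other 142 to 80122 CPM, next 49857 CPM. PT_v1_tr_01761 was at 58048 CPM (next 13788), PT_v1_tr_06554 at 23342 CPM (next 9162), PT_v1_tr_03963 at 23363 CPM (next 8741) and PT_v1_tr_06635 at 22349 CPM (next 8575). PT_v1_tr_05967 was at 22687 CPM, PT_v1_tr_05492 at 22106 CPM, PT_v1_tr_07972 at 21895 CPM and PT_v1_tr_08320 at 22391 CPM, against next values between 7971 and 8498 CPM. PT_v1_tr_07937 was at 380 CPM and PT_v1_tr_03212 at 1162 CPM, next 88.7 and 162 CPM.

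Other embryos high for their block in the members' share were those labelled 17 h at 10.6%, 26 h at 10.1%, 31 h at 4.12%, 38 h at 4.18% and 49 h at 2.55%. That labelled 8 h was high per spike-in count at 0.518, next 0.363. The other 142 members summed to 31343 CPM at 31 h, and the correlated 8 to 16025 CPM at 49 h.

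At 9 h PT_v1_tr_07937 was at 285 CPM and PT_v1_tr_03212 at 211 CPM. At 37 h PT_v1_tr_03212 was at 5.60 CPM where the other 5 embryos were at 0. At 39 h PT_v1_tr_01726 was at 11.8 CPM. At 38 h PT_v1_tr_06554 was at 4156 CPM and PT_v1_tr_03963 at 4126 CPM. PT_v1_tr_00346 was low at 23 h, at 1225 CPM where the next was at 1804 CPM.

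The 4 libraries in no comparison held 1.84% (24 h), 7.14% (48 h), 2.98% (62 h) and 2.43% (120 h) of their counts in the members. The value at 24 h was below all other embryos of 1 to 43 h, and that at 48 h above all of 30 to 97 h. That at 62 h rests on 2816 counts in all.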

How the results depend on the processing

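Of 17 log2 changes given above and called by edgeR with TMM scaling, 6 were called under every setting. At 18-23 h against 7-12 h these were PT_v1_tr_06233, PT_v1_tr_09264 and PT_v1_tr_09650. At 37-42 h against 18-23 h they were PT_v1_tr_05500, PT_v1_tr_08168 and PT_v1_tr_08327. PT_v1_tr_02123 changed direction in the latter with spike-ins, to 0.16. At 18-23 h against 7-12 h, DESeq2 called 26 lower and total counts 32, against 10. Over all transcripts 10.2% were lower with either, against 4.43%. Members higher were 0 with total counts, 0 with spike-ins, 1 with no filter and 5 with 1 transcript per near-identical set, against 9. Over all transcripts 4.96% were higher with total counts, 1.64% with spike-ins and 5.33% with no filter, against 8.09%. At 25-30 h against 18-23 h, lower were 2 with size factors and 29 with DESeq2, and higher 2 with spike-ins, against 0. Over all transcripts these were 0.298%, 3.99% and 12.8%, against 0.0248% in each direction. DESeq2 called 10 lower at 31-36 h against 25-30 h and 9 lower at 37-42 h against 31-36 h, where no filter gave 2, against 4. Over all transcripts these were 0.85%, 1.19% and 0.0751%, the last 2 against 0.246%. At 37-42 h against 18-23 h, spike-ins gave 3 lower and 5 higher and no filter 33 lower, against 58 and 0. Over all transcripts these were 0.328%, 51.45% and 3.46%, against 8.63% lower and 10.6% higher. At 85-97 h against 52-58 h, no filter gave 10 lower and 4 higher, against 0. Over all transcripts these were 10.8% and 4.07%.

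Leaving out 1 embryo at a time, members lower at 18-23 h against 7-12 h ran from 5 (without 8 h) to 18 (without 21 h) and higher from 0 to 10, with more than 1.5 times fewer or more lower without 8, 9, 20, 21 or 22 h and fewer higher without 7, 8, 9, 10, 11, 20, 21 or 23 h. Lower ran from 0 to 6 (without 26 h) at 25-30 h against 18-23 h, from 0 to 7 (without 31 h) at 31-36 h against 25-30 h, from 0 to 4 at 37-42 h against 31-36 h (moved in 10 of 12 fits) and from 45 to 62 at 37-42 h against 18-23 h, and stayed 0 at 85-97 h against 52-58 h.

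Had PT_v1_tr_02502 stayed in the totals, 54 of the 150 would be chosen of 94 candidates, and per spike-in count 74 of 115. The blocks of first going under 0.5 held 95, 4, 7, 10 and 8 members per spike-in count with 26 in none, and with embryo medians 3 at 43-51 h and 1 in none. The causes were not tested. No paired analysis was possible because replicate numbers follow accession order only. At these depths a member under 10 CPM has few counts per embryo.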
